A study of Mus musculus with 8 samples.

Results

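Lgals8, the gene for the glycan-binding protein galectin-8, lies on mouse chromosome 13, and 10 of its neighbours there are described here: Heatr1, Ero1lb, Edaradd, Gpr137b, Gpr137b-ps, Nid1, Lyst, Mtr, Actn2 and Epdr1. They are 10 of the 40481 gene IDs in the count table. All 10 are among the 19647 genes that passed the filter on low counts. The genes were chosen by their place within about 8 Mb (megabases) of Lgals8 and because the genotypes had already been compared in them, so their genotype differences are given as descriptions, with no test. The age differences within each genotype were not used to choose them and are tested. The difference in age response between genotypes equals the genotype difference at 8 weeks minus that at 3 weeks. It is therefore not independent of the choice, and its p-values are given with nothing read from them. The comparison asks how far genes around a disrupted locus differ between the strains being compared, since a targeted allele can be inherited together with the DNA around it.

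Stomach RNA was sequenced from Lgals8-null mice (KO) and wild-type C57BL/6J mice (WT) aged 8 or 3 weeks. There are 8 libraries, 2 for each of 4 groups: KO at 8 weeks, WT at 8 weeks, KO at 3 weeks and WT at 3 weeks. The sources used here give neither the making of the null allele nor the strain it was made in. Nothing in the labels says that both libraries of a group come from different animals, so the p-values measure the spread between these libraries, which may be technical. The library names of each group carry different numbers, with none on 1 WT name at 8 weeks, and the labels do not say whether a number stands for an animal. Levels are given in CPM, the count of a gene scaled to the size of its library, with trimmed mean of M values (TMM) factors between libraries. A gene passed a test where the edgeR quasi-likelihood p, adjusted by Benjamini-Hochberg over all 19647 genes, was under 0.05. Library totals ran from 58851837 to 80686621 counts. The defining chief, parietal and surface mucous cell markers of the stomach were present in every library apart from Lipf, which was at 0 in at least 1.

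As background, the stomach's glands hold chief cells that secrete digestive proenzymes, and secretory cells of this kind fold disulfide-bonded proteins in the endoplasmic reticulum. Ero1lb is the endoplasmic reticulum oxidase ERO1 beta, which re-oxidises protein disulfide isomerases and is known from pancreas and stomach. Gpr137b is a lysosomal membrane protein that, in human cells, takes part in nutrient sensing through the Rag GTPases, and Gpr137b-ps is annotated as its transcribed pseudogene. Lyst is the lysosomal trafficking regulator, whose loss gives the beige mouse its large granules. Epdr1 is an ependymin-related lysosomal and secreted glycoprotein. Edaradd is the adaptor that carries the signal of the ectodysplasin receptor in skin appendages. Nid1 is nidogen 1, which links laminin to type IV collagen in basement membranes. Actn2 is the alpha-actinin of the Z-disc in skeletal and heart muscle. Heatr1 is a factor of small ribosomal subunit assembly in the nucleolus, and Mtr is methionine synthase, the vitamin B12-dependent enzyme that remakes methionine.

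On GRCm38, per GENCODE release M21, the genes follow each other along chromosome 13 as Mtr (12182712 to 12258113, minus strand), Actn2 (12269426 to 12340760, minus) and Heatr1 (12395027 to 12440289, plus), then Lgals8 (12439415 to 12464944, minus). Beyond Lgals8 come Edaradd (12472632 to 12520438, minus), Ero1lb (12565874 to 12611396, plus) and Gpr137b-ps (12615057 to 12650388, minus). Farther out are Gpr137b (13357620 to 13394014, minus), Nid1 (13437551 to 13512269, plus) and Lyst (13590397 to 13778803, plus). Epdr1 is the most distant (19591706 to 19619927, minus), with its start site 7.155 Mb from that of Lgals8. Heatr1 and Lgals8 overlap tail to tail: 155 exon bases are shared on opposite strands, which is 1.98% of the Heatr1 exons and 4.20% of the Lgals8 exons. The protocol in the labels describes no strand marking, so reads from those bases cannot be told apart. Nid1 overlaps the antisense gene model Gm48682 by 143 bases in the same way.

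Gpr137b and Gpr137b-ps are close copies, and their sequences set how far their counts can be read apart. The 1179-base coding sequence of Gpr137b aligned over its whole length to a Gpr137b-ps transcript of 1301 bases with 99.58% identity, 5 differences and 1 gap. The longest identical run was 620 bases. Of the 928 windows of 150 bases along that alignment that do not cross the gap, 458 (49.35%) held no difference. The stretch below is shown because it carries differences that a read could use. Gpr137b runs from base 548 to base 697 of its coding sequence and Gpr137b-ps from base 643 to base 792 of its transcript, both taken from the GENCODE reference, 5′ to 3′. Capitals mark the bases that differ.
Gpr137b: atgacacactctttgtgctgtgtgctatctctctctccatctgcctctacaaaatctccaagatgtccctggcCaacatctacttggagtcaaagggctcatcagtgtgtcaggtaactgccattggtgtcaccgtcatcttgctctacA
Gpr137b-ps: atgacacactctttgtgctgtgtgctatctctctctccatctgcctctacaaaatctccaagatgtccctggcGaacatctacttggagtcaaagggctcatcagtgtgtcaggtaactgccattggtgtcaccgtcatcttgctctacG
Over the whole transcripts, 21.4% of the 75-base words of Gpr137b were also found in Gpr137b-ps, and 22.1% of those of Gpr137b-ps in Gpr137b. Ero1lb shared 7.74% of its 75-base words with the gene model Gm18562. Nid1 shared 2.21% with Gm2399 and Gm48682, and Heatr1 1.05% with Lgals8. No shared word was found for Edaradd, Lyst, Mtr, Actn2 or Epdr1. How the authors' counting treated multi-mapping reads is not stated in the sources used here, and the counts of the Gpr137b genes are uncertain where reads fall in identical stretches.

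RefSeq promoters (GRCm38.p6) were matched by symbol for 8 of the 10 genes, all but Gpr137b and Gpr137b-ps. The 250 bases upstream of the RefSeq start are shown for Ero1lb (RefSeq symbol Ero1b, chr13:12565633-12565882, plus strand) and Nid1 (chr13:13437352-13437601, plus strand), the genes whose age differences passed the test. Capitals mark motif matches found on either strand.
Ero1lb: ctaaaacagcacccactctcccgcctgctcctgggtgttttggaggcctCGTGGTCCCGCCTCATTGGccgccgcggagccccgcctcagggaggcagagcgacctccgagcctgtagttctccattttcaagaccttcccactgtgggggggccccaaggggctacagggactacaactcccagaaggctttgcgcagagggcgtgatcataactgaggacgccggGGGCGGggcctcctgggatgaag
Nid1: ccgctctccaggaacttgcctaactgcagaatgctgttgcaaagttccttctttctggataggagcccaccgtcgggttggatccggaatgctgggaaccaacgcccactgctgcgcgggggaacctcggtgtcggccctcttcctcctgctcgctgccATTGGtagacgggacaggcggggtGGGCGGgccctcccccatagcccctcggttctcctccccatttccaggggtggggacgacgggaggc
The Ero1lb promoter held an endoplasmic reticulum stress element, CCAAT and CCACG with a 9-base spacer, as its reverse complement at 201 to 183 bases upstream. Its CCAAT part is also the promoter's CCAAT box. That element was found in 37 of 32851 promoters (0.11%). Of the 19 genes with a promoter on a list of endoplasmic reticulum folding genes, 7 held it: Pdia6, Hspa5, Hsp90b1, Calr, Canx, Dnajc3 and Creld2. The Nid1 promoter held a CCAAT box at 91 to 87 bases upstream. Both promoters held a GC box (GGGCGG). The CCAAT box was present in 33.85% of all promoters and the GC box in 32.74%. The E-box (CACGTG, in 6.02% of all promoters) and the TATA box (TATAAA, in 12.37%) were not in the letters of either window. Among the other promoters, Actn2 held 2 E-boxes, Lyst 3 GC boxes and Mtr 2 CCAAT boxes. None of the 5 motifs was found in the windows of Heatr1, Edaradd or Epdr1. A match is a description of these letters and not of binding.

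Lgals8 itself was measured at 1.94 and 4.16 CPM in KO at 8 weeks, against 37.6 and 36.4 CPM in WT at 8 weeks. It had 1.70 and 2.78 CPM in KO at 3 weeks, against 34.6 and 33.9 CPM in WT at 3 weeks. The KO level was 8.25% of the WT level at 8 weeks and 6.55% at 3 weeks, and the libraries matched their labels.

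**Figure D1:**
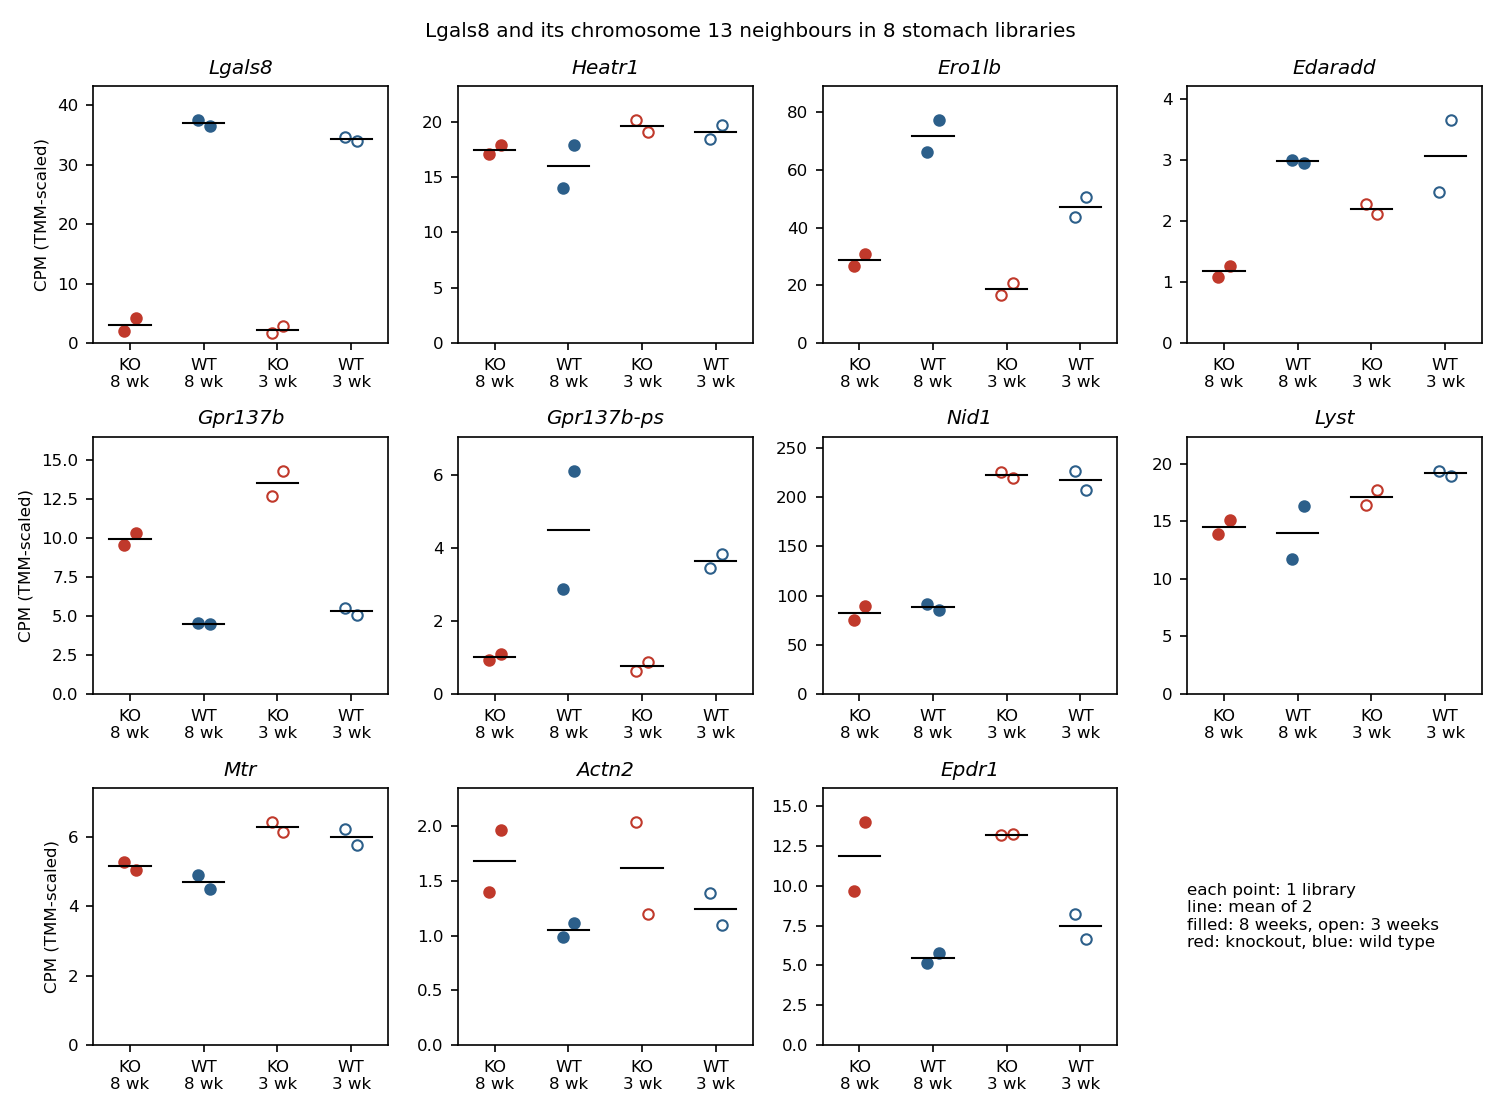
CPM (TMM-scaled, y axis from 0) of Lgals8 and its 10 neighbours in each library, by genotype and age; points are libraries and lines the mean of 2. Ero1lb and Gpr137b-ps lie lower in KO at both ages, Gpr137b and Epdr1 lie higher, and Nid1 differs by age, with means of 82.3 CPM in KO and 88.4 CPM in WT at 8 weeks, and 222.4 CPM in KO and 217.1 CPM in WT at 3 weeks.

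Of the 10 genes, 4 had KO and WT libraries that did not overlap at either age, with the same direction and at least a 1.5-fold difference at both. Gpr137b and Epdr1 were higher in KO, where 1.89% of all genes tested met this, and Ero1lb and Gpr137b-ps were lower in KO, where 0.738% did. Since these genes were listed with this comparison known, nothing is read from those shares. Without the 1.5-fold limit and at 1 age, 43.5% of all genes tested did not overlap at 8 weeks and 49.8% at 3 weeks, so non-overlap alone between groups of 2 is common here. The median absolute genotype difference of the 10 genes was 0.89 at 8 weeks and 0.43 at 3 weeks on the log2 scale, against 0.24 and 0.16 over all genes tested. For the same reason nothing is read from these medians. The 50 other tested genes within 8 Mb had medians of 0.30 at 8 weeks and 0.24 at 3 weeks. Where library totals replaced the TMM factors, the scaling moved the median genotype difference of all genes tested to 0.35 at 8 weeks and 0.07 at 3 weeks, and the genotype differences below are on the TMM scale unless stated.

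Ero1lb, the folding oxidase, was lower in KO at both ages. It had 26.8 and 30.9 CPM in KO at 8 weeks, against 66.1 and 77.5 CPM in WT at 8 weeks. It had 16.6 and 20.8 CPM in KO at 3 weeks, against 43.7 and 50.6 CPM in WT at 3 weeks. Every KO library was below every WT library, whatever the age. The log2 difference between genotypes was -1.32 (SE 0.14) at 8 weeks and -1.33 (SE 0.15) at 3 weeks, which is 2.49-fold and 2.52-fold lower in KO. Ero1lb rose with age in both genotypes, by 1.54-fold in KO (log2 0.62, SE 0.14, edgeR adjusted p 0.035) and by 1.52-fold in WT (log2 0.61, SE 0.14, edgeR adjusted p 0.029). These calls lie near the threshold. The KO call was lost in 7 of 16 alternatives, among them leaving out KO_8wk replicate 2, KO_3wk replicate 1 or 2, or WT_3wk replicate 1 or 2. The WT call was lost in 5 of 16, among them leaving out any 1 of the 4 WT libraries. The direction held in all of them, and with library totals in place of TMM the WT difference was 0.05 and the KO difference 0.35.

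The summed markers of chief cells differed in the same directions as Ero1lb, by genotype and by age. The summed level of the 9 chief cell markers was 144570 and 176440 CPM in KO at 8 weeks, against 349660 and 345860 CPM in WT at 8 weeks. It was 71681 and 76899 CPM in KO at 3 weeks, against 93694 and 95331 CPM in WT at 3 weeks. As with Ero1lb, the sum was lower in KO and higher at 8 weeks. The genotype gap of the sum was smaller at 3 weeks than at 8 weeks. That of Ero1lb was alike at both ages (log2 -1.32 at 8 weeks and -1.33 at 3 weeks). Of the 8 chief cell markers tested, 1 had a positive genotype difference at 8 weeks and 0 at 3 weeks. For age they were mixed: 5 of the 8 had a positive difference in KO and 7 in WT. By edgeR, 3 were called higher and 1 lower with age in KO, and 5 higher and 1 lower in WT. Lipf was at 0 in at least 1 library. In whole stomach RNA, fewer cells of a type and less RNA per cell cannot be told apart, and the part of the chief cell markers in the Ero1lb difference was not tested. Parietal, surface mucous, enteroendocrine and endothelial marker sums were also lower in KO at both ages without overlap, and macrophage, B and plasma cell, and T and NK cell sums higher. Single markers did not all follow their sum. Positive genotype differences were found for 4 of 8 enteroendocrine markers at 8 weeks and 4 of 9 parietal markers at 3 weeks. All 7 macrophage markers were positive at both ages. Some gaps were small: at 3 weeks the T and NK sum was 4.72 and 4.85 CPM in KO, against 3.60 and 4.33 CPM in WT. The sum of 9 pancreatic acinar markers was 67.5 and 81.8 CPM in KO at 8 weeks, against 154.4 and 162.6 CPM in WT at 8 weeks. It was 81.9 and 57.3 CPM in KO at 3 weeks, against 66.7 and 49.8 CPM in WT at 3 weeks, so it was lower in KO at 8 weeks and overlapped at 3 weeks. Prss2, Cpa1 and Amy2b were at 0 in at least 1 library, and the part of these markers in the Ero1lb difference was not tested.

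How many other genes of oxidative folding in the endoplasmic reticulum passed the test for age depended on the tool. On a list of 22 such genes, 5 rose and 0 fell with age in KO, and 1 rose and 1 fell in WT, by edgeR. DESeq2 called 11 higher and 0 lower in KO, and 9 higher and 1 lower in WT. Over all genes tested, 4.21% were called higher and 6.55% lower with age in KO, and 6.92% higher and 7.41% lower in WT. The list's median log2 age difference was 0.40 in KO and 0.24 in WT, against 0.01 and -0.02 over all genes tested. Between genotypes, KO over WT, the list's median log2 difference was 0.18 at 8 weeks, with 16 of the 22 positive. At 3 weeks it was 0.03, with 12 positive. Xbp1, the transcription factor of the unfolded protein response and of secretory cells, rose with age in both genotypes (log2 0.43, edgeR adjusted p 0.021 in KO, and 0.80, edgeR adjusted p 0.0023 in WT). Ero1l, the other ERO1 oxidase, rose in KO (log2 0.97, edgeR adjusted p 0.0042) and had a log2 difference of 0.37 in WT (edgeR adjusted p 0.070). Calr, the lectin chaperone calreticulin, rose in KO by 0.41 (edgeR adjusted p 0.028). Pdia5, a disulfide isomerase, fell in WT by 0.48 (edgeR adjusted p 0.020). With library totals, 1 gene was called higher and 2 lower in KO, where Xbp1 (0.16, edgeR adjusted p 0.19) and Calr (0.14, edgeR adjusted p 0.32) were no longer called. In WT the median turned to -0.32, with 1 gene called higher and 11 lower, and Ero1l and Calr turned negative (-0.19 and -0.32). The edgeR count of rising genes also depended on single libraries: in KO it was 13 without WT_8wk replicate 2, 12 without WT_8wk replicate 1, 3 without either KO_8wk library, 1 without KO_3wk replicate 2 or either WT_3wk library and 0 without KO_3wk replicate 1, and in WT it was 10 without WT_8wk replicate 1, 3 without either KO_8wk library and 1 without any of the others.

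Gpr137b was higher in KO at both ages. It had 9.57 and 10.3 CPM in KO at 8 weeks, against 4.53 and 4.47 CPM in WT at 8 weeks. It had 12.7 and 14.3 CPM in KO at 3 weeks, against 5.52 and 5.09 CPM in WT at 3 weeks. Each KO library was higher than every WT library of either age. The log2 genotype difference was 1.14 (SE 0.14) at 8 weeks and 1.35 (SE 0.14) at 3 weeks, or 2.21-fold and 2.55-fold higher in KO. It was the largest positive difference of the 10 genes at 3 weeks, while at 8 weeks that of Epdr1 was within 1 SE of it.

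Gpr137b-ps went the other way. It had 0.940 and 1.11 CPM in KO at 8 weeks, against 2.90 and 6.14 CPM in WT at 8 weeks. It had 0.636 and 0.881 CPM in KO at 3 weeks, against 3.47 and 3.84 CPM in WT at 3 weeks. The WT libraries at 8 weeks were the least alike, and KO and WT did not overlap at either age. Between genotypes the log2 difference was -2.14 (SE 0.39) at 8 weeks and -2.27 (SE 0.39) at 3 weeks. The 8-week difference was -1.50 without WT_8wk replicate 2 and -2.58 without WT_8wk replicate 1.

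**Figure D2:**
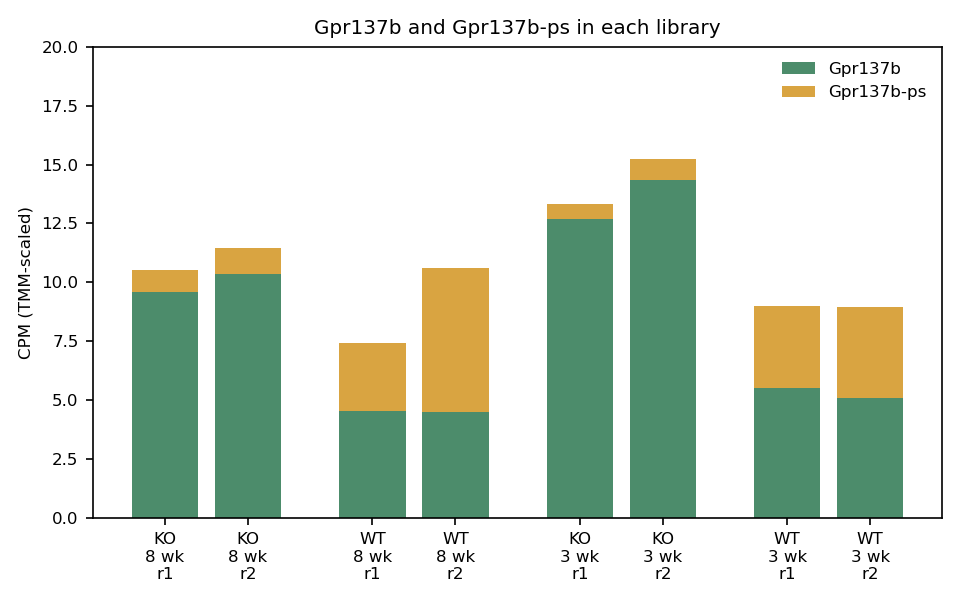
CPM (TMM-scaled) of Gpr137b and Gpr137b-ps stacked in each of the 8 libraries. The Gpr137b-ps share of the stack lies between 4.78% and 9.67% in the KO libraries and between 38.6% and 57.8% in the WT libraries.

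The share of Gpr137b-ps in the sum of both genes was 8.94% and 9.67% in KO at 8 weeks, against 39.0% and 57.8% in WT at 8 weeks. It was 4.78% and 5.79% in KO at 3 weeks, against 38.6% and 43.0% in WT at 3 weeks. The sum of both genes differed less than either gene. It does not depend on how reads counted once are divided between them. It does depend on whether reads that fit both were counted, dropped or counted for each, which is not stated. It was 10.5 and 11.5 CPM in KO at 8 weeks, against 7.43 and 10.6 CPM in WT at 8 weeks, where 1 WT library lay between the KO libraries. It was 13.3 and 15.2 CPM in KO at 3 weeks, against 8.99 and 8.93 CPM in WT at 3 weeks, where the groups did not overlap. The ratio of the means was 1.22 at 8 weeks and 1.59 at 3 weeks. Neither gene passed the test for age. The log2 age difference of Gpr137b was -0.44 in KO (edgeR adjusted p 0.077) and -0.24 in WT (edgeR adjusted p 0.31), and that of Gpr137b-ps was 0.43 in KO (edgeR adjusted p 0.52) and 0.31 in WT (edgeR adjusted p 0.66).

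Of 21 genes of lysosomal nutrient sensing, 3 rose and 0 fell with age in KO, and 7 rose and 0 fell in WT. Their median log2 age difference was 0.16 in KO and 0.26 in WT. Lamp1, an abundant lysosomal membrane protein, rose in KO by 0.33 (edgeR adjusted p 0.034) and in WT by 0.47 (edgeR adjusted p 0.0086). Lamtor2, a subunit of the Ragulator complex that anchors the Rag GTPases, rose by 0.41 in KO (edgeR adjusted p 0.016) and 0.35 in WT (edgeR adjusted p 0.021). Fnip2, a partner of folliculin, rose by 0.65 in KO (edgeR adjusted p 0.023) and 0.70 in WT (edgeR adjusted p 0.015). Lamtor4, another Ragulator subunit, rose in WT by 0.36 (edgeR adjusted p 0.016). With library totals the medians were -0.11 in KO and -0.30 in WT, with 0 genes called higher and 5 lower in KO, and 0 higher and 15 lower in WT, and Lamp1, Lamtor2 and Lamtor4 turned negative in WT. In KO, 0 genes rose without either KO_3wk library and 1 without either WT_3wk library. In WT, 2 rose without WT_8wk replicate 1, 3 without either KO_3wk library and 0 without either WT_3wk library.

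Epdr1, the most distant of the 10, was also higher in KO. It had 9.66 and 14.05 CPM in KO at 8 weeks, against 5.14 and 5.77 CPM in WT at 8 weeks. It had 13.2 and 13.2 CPM in KO at 3 weeks, against 8.24 and 6.67 CPM in WT at 3 weeks. The groups did not overlap at either age. KO over WT, the log2 fold change was 1.12 (SE 0.20) at 8 weeks and 0.83 (SE 0.20) at 3 weeks, or 2.17-fold and 1.77-fold higher in KO. For age, Epdr1 had a log2 difference of -0.16 in KO (edgeR adjusted p 0.65) and -0.45 in WT (edgeR adjusted p 0.19).

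Lyst, the other lysosomal gene, had 13.9 and 15.2 CPM in KO at 8 weeks, against 11.7 and 16.3 CPM in WT at 8 weeks. It had 16.4 and 17.7 CPM in KO at 3 weeks, against 19.4 and 18.9 CPM in WT at 3 weeks. At 8 weeks the WT libraries lay on either side of the KO libraries, and at 3 weeks the WT libraries were slightly higher. Its log2 genotype difference was 0.05 (SE 0.16) at 8 weeks and -0.17 (SE 0.15) at 3 weeks. Its age difference was -0.23 in KO (edgeR adjusted p 0.37) and -0.45 in WT (edgeR adjusted p 0.10). Without WT_8wk replicate 2 the WT age difference was -0.71 and passed (edgeR adjusted p 0.028), and it also passed with library totals (-1.01, edgeR adjusted p 0.0018). On a list of 16 genes of BEACH-domain proteins and lysosome-related organelles, 0 rose and 3 fell with age in KO, and 1 rose and 0 fell in WT. The 3 that fell in KO were Nbeal1 (log2 -0.35, edgeR adjusted p 0.027), Hps3 (-0.58, edgeR adjusted p 0.031) and Lrba (-0.35, edgeR adjusted p 0.049), and Dtnbp1, a subunit of the organelle-biogenesis complex BLOC-1, rose in WT (0.72, edgeR adjusted p 0.0054). The list's medians were -0.05 in KO and 0.05 in WT, and -0.33 and -0.51 with library totals. That scaling gave 0 genes called higher and 5 lower in KO, and 0 higher and 12 lower in WT, where Dtnbp1 was no longer called (0.16, edgeR adjusted p 0.21). No gene of it passed in KO without any 1 of the 3-week libraries, or in WT without either WT_3wk library, and without either KO_8wk library 3 fell in WT.

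Edaradd, the ectodysplasin receptor adaptor, was lower in KO at 8 weeks. It had 1.09 and 1.27 CPM in KO at 8 weeks, against 3.01 and 2.96 CPM in WT at 8 weeks. It had 2.29 and 2.12 CPM in KO at 3 weeks, against 2.48 and 3.67 CPM in WT at 3 weeks. The groups did not overlap at either age, and at 3 weeks the gap between the nearest KO and WT libraries was small. The log2 genotype difference was -1.34 (SE 0.27) at 8 weeks and -0.48 (SE 0.26) at 3 weeks, or 2.53-fold and 1.39-fold lower in KO. Without WT_3wk replicate 2 the 3-week difference was -0.17. The age difference was -0.91 in KO (SE 0.27, edgeR adjusted p 0.073) and -0.04 in WT (SE 0.26, edgeR adjusted p 0.94). In KO it passed with DESeq2 (-0.89, DESeq2 adjusted p 0.043) and with library totals (-1.18, edgeR adjusted p 0.016). The difference between those age responses was -0.86 (SE 0.38) and did not pass (edgeR adjusted p 0.57).

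Markers of the squamous forestomach, the keratinised part of the mouse stomach, varied between libraries of the same group. Their sum was 110.8 and 202.0 CPM in KO at 8 weeks, against 4.35 and 629.6 CPM in WT at 8 weeks. It was 746.7 and 7.56 CPM in KO at 3 weeks, against 509.8 and 4.52 CPM in WT at 3 weeks. Within each group except KO at 8 weeks, 1 library was high and the other under 10 CPM. Edaradd was about equal in both libraries of KO at 3 weeks and of WT at 8 weeks, and higher in the low library of WT at 3 weeks. The part of these markers in the Edaradd values was not tested. Krt6a, Trp63, Ivl and Krtdap were each at 0 in at least 1 library. On a list of 15 genes of ectodysplasin and NF-kB signalling, 0 rose and 1 fell with age in each genotype. That gene was Nfkb1, an NF-kB subunit (log2 -0.30, edgeR adjusted p 0.041 in KO, and -0.42, edgeR adjusted p 0.011 in WT). It was no longer called in KO without any 1 of the 3-week libraries, nor in WT without either WT_3wk library, and 3 genes of the list rose in KO without KO_8wk replicate 2. The replicate block gave 0 calls in KO. With library totals 4 genes of the list fell in KO and 10 in WT.

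Nid1 was the most abundant of the 10 genes and the one with the largest age difference. It had 75.2 and 89.4 CPM in KO at 8 weeks, against 225.0 and 219.7 CPM in KO at 3 weeks. It had 91.6 and 85.2 CPM in WT at 8 weeks, against 227.0 and 207.2 CPM in WT at 3 weeks. All 4 libraries at 8 weeks were below all 4 at 3 weeks, and KO and WT overlapped at both ages. Nid1 fell with age by 1.43 on the log2 scale in KO (SE 0.10, 2.702-fold, edgeR adjusted p 0.00063) and fell by 1.30 in WT (SE 0.10, 2.46-fold, edgeR adjusted p 0.00079). It passed in all 16 alternatives in both genotypes, with adjusted p up to 0.036 in KO and 0.012 in WT. Its genotype difference was -0.10 (SE 0.10) at 8 weeks and 0.03 (SE 0.10) at 3 weeks on the log2 scale, and the 8-week value turned to 0.25 with library totals.

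Most of the other basement membrane genes fell with age, as Nid1 did. Of 18 such genes, 0 rose and 15 fell in KO, and 0 rose and 15 fell in WT. Their median log2 age difference was -1.35 in KO and -0.96 in WT. Nid2, the other nidogen, fell by 1.64 in KO (edgeR adjusted p 0.00035) and fell by 1.87 in WT (edgeR adjusted p 0.00024). Lama2, a laminin alpha chain of muscle, fell by 1.81 in KO (edgeR adjusted p 0.00025) and fell by 1.07 in WT (edgeR adjusted p 0.00094). Lamc1, the common laminin gamma chain, fell by 1.43 in KO (edgeR adjusted p 0.00026) and fell by 1.38 in WT (edgeR adjusted p 0.00025). Lama4, a laminin alpha chain of vessels, fell by 1.29 in KO (edgeR adjusted p 0.00028) and fell by 1.04 in WT (edgeR adjusted p 0.00047). Over the fits that leave out 1 library, 12 to 15 genes fell in KO and 11 to 16 in WT. The summed endothelial markers, a cell type that makes basement membrane, were 169.5 and 175.2 CPM in KO at 8 weeks, against 232.3 and 229.6 CPM in KO at 3 weeks. They were 232.1 and 190.8 CPM in WT at 8 weeks, against 253.2 and 278.2 CPM in WT at 3 weeks. None of the 6 endothelial markers was at 0 in any library, and 1 of them had a positive age difference in KO and 2 in WT. The smooth muscle marker sum overlapped between ages. It was 3858 and 5488 CPM in KO at 8 weeks, against 7355 and 5088 CPM in KO at 3 weeks. In WT it was 4674 and 5934 CPM at 8 weeks, against 5884 and 4068 CPM at 3 weeks. The part of these markers in the Nid1 difference was not tested.

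Actn2, the Z-disc actinin, had the lowest mean log2 CPM of the 10 genes. It had 1.40 and 1.96 CPM in KO at 8 weeks, against 0.987 and 1.119 CPM in WT at 8 weeks. It had 2.04 and 1.198 CPM in KO at 3 weeks, against 1.39 and 1.09 CPM in WT at 3 weeks. KO was above WT at 8 weeks, and the groups overlapped at 3 weeks. The log2 genotype difference was 0.67 (SE 0.37) at 8 weeks and 0.39 (SE 0.36) at 3 weeks, and the 3-week value was -0.05 without KO_3wk replicate 1. That library also held the highest sum of the 11 striated muscle markers. The sum was 38.6 and 30.8 CPM in KO at 8 weeks, against 25.2 and 40.3 CPM in WT at 8 weeks, and 74.4 and 25.8 CPM in KO at 3 weeks, against 26.2 and 20.5 CPM in WT at 3 weeks. Myh1, Myh4 and Tnnc2 were at 0 in at least 1 library, and the part of these markers in the Actn2 values was not tested. For age, Actn2 had a log2 difference of 0.05 in KO (edgeR adjusted p 0.95) and -0.24 in WT (edgeR adjusted p 0.75). On a list of 15 Z-disc and sarcomere genes, 11 passed the filter, and 1 fell with age in each genotype. That gene was Actn1, the non-muscle alpha-actinin (log2 -0.42, edgeR adjusted p 0.036 in KO, and -0.44, edgeR adjusted p 0.026 in WT). No gene of the list was called in KO without KO_8wk replicate 1 or any 1 of the 3-week libraries, or in WT without any 1 of the WT libraries, and 2 fell in KO without KO_8wk replicate 2. DESeq2 called 4 of the 11 lower in KO and 1 in WT, and with library totals 6 fell in KO and 5 in WT.

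Heatr1, the ribosome assembly factor that overlaps Lgals8, did not follow Lgals8. It had 17.1 and 17.9 CPM in KO at 8 weeks, against 14.004 and 17.9 CPM in WT at 8 weeks. It had 20.2 and 19.1 CPM in KO at 3 weeks, against 18.5 and 19.7 CPM in WT at 3 weeks. The groups overlapped at both ages, with log2 genotype differences of 0.13 (SE 0.13) at 8 weeks and 0.04 (SE 0.13) at 3 weeks. The age difference was -0.17 in KO (edgeR adjusted p 0.44) and -0.26 in WT (edgeR adjusted p 0.24). Of 25 ribosome biogenesis genes, 0 rose and 3 fell with age in KO, and 0 rose and 2 fell in WT. Ncl, the gene for nucleolin, fell by 0.53 in KO (edgeR adjusted p 0.0083) and fell by 0.51 in WT (edgeR adjusted p 0.0080). Polr1a, the largest subunit of RNA polymerase I, fell by 0.52 in KO (edgeR adjusted p 0.011) and fell by 0.38 in WT (edgeR adjusted p 0.023). Tbl3, a factor of the small subunit processome, fell by 0.32 in KO (edgeR adjusted p 0.049). With library totals 18 of the 25 fell in KO and 25 in WT. Without either KO_3wk library 0 fell in KO, and in WT 1 fell without any 1 of the WT_8wk or KO_3wk libraries and 0 without either WT_3wk library.

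Mtr, methionine synthase, had genotype differences under 1 SE on the TMM scale. It had 5.27 and 5.03 CPM in KO at 8 weeks, against 4.89 and 4.51 CPM in WT at 8 weeks. It had 6.44 and 6.13 CPM in KO at 3 weeks, against 6.22 and 5.77 CPM in WT at 3 weeks. The KO libraries were above the WT libraries at 8 weeks and overlapped with them at 3 weeks. Its log2 genotype difference was 0.13 (SE 0.15) at 8 weeks and 0.07 (SE 0.15) at 3 weeks. With library totals it was 0.48 at 8 weeks, where that scaling moved the median of all genes by 0.35. The age difference was -0.29 in KO (edgeR adjusted p 0.27) and -0.35 in WT (edgeR adjusted p 0.18). Of 16 genes of the methionine and folate cycles, 1 rose and 2 fell with age in KO, and 3 rose and 2 fell in WT. Mthfd1l fell by 0.97 in KO (edgeR adjusted p 0.0088) and fell by 0.71 in WT (edgeR adjusted p 0.019), and Shmt1, a serine hydroxymethyltransferase, fell by 0.55 in KO (edgeR adjusted p 0.0091) and fell by 0.32 in WT (edgeR adjusted p 0.041). Mthfd2, a mitochondrial folate enzyme, rose by 0.45 in KO (edgeR adjusted p 0.030) and by 0.62 in WT (edgeR adjusted p 0.0086). Cth, the enzyme that makes cysteine from cystathionine, rose by 0.87 in WT (edgeR adjusted p 0.0069). No gene of the list passed in KO without either KO_3wk library or in WT without either WT_3wk library, and 5 fell in KO without KO_8wk replicate 2. With library totals 0 rose and 7 fell in KO, and 1 rose and 12 fell in WT.

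**Figure D3:**
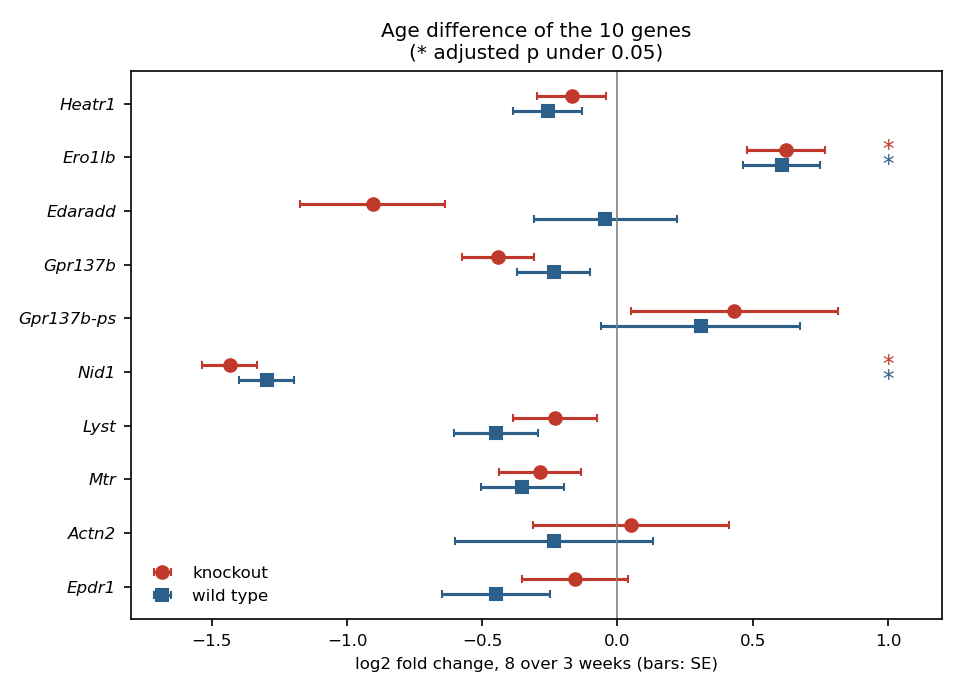
Log2 fold change of 8 over 3 weeks for each of the 10 genes, KO (circles) above WT (squares), with SE bars; asterisks mark an edgeR adjusted p under 0.05. Ero1lb lies to the right of 0 in both genotypes (0.62 and 0.61) and Nid1 to the left (-1.43 and -1.30), and the other 8 genes carry no asterisk.

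In KO 1 of the 10 genes rose with age and 1 fell, where 4.21% of all genes tested rose and 6.55% fell. In WT 1 rose and 1 fell, where 6.92% of all genes rose and 7.41% fell. The median log2 age difference of the 10 was -0.20 in KO and -0.25 in WT. With library totals in place of TMM, a scaling that moves the median of all genes to -0.26 in KO and -0.58 in WT, 5 of the 10 passed in KO and 6 in WT. For the difference between the age responses of the genotypes, 0 of the 10 genes passed, with edgeR adjusted p from 0.57 to 0.99. That difference is made of the genotype comparisons known when the 10 were listed, so nothing is read from this count. Of all genes tested, 0% passed in edgeR, with 1727 at an unadjusted p under 0.05, against 175 genes called by DESeq2 and 0 by limma voom. Leaving out KO_8wk replicate 1 or KO_8wk replicate 2 gave 419 and 121 genes by edgeR, none of them among the 10. The galectin genes other than Lgals8 are a reference for Lgals8's own family. Of 7 tested, Lgals2 rose with age in both genotypes (log2 1.26, edgeR adjusted p 0.0011 in KO, and 1.25, edgeR adjusted p 0.00083 in WT), and Lgals4 (-0.61, edgeR adjusted p 0.019) and Lgals3 (-0.69, edgeR adjusted p 0.043) fell in WT, neither of them without any 1 of the WT libraries. With library totals 2 of the 7 fell in KO and 5 in WT. In a fit to the 4 KO libraries alone, 0 genes were called for age in KO on the lists of ribosome biogenesis, ectodysplasin and NF-kB signalling, lysosomal nutrient sensing, BEACH-domain proteins, the methionine and folate cycles, and the Z-disc.

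Per kilobase of exon, a scale on which genes can be set beside each other, Nid1 led in KO at 8 weeks with a mean level of 11.9 CPM per kilobase. Ero1lb (4.34) and Epdr1 (4.32) followed, then Heatr1 (2.23), Gpr137b (1.98), Lyst (0.833), Mtr (0.604), Actn2 (0.442), Gpr137b-ps (0.217) and Edaradd (0.176). In WT at 8 weeks the mean levels per kilobase were 12.7 for Nid1 and 10.8 for Ero1lb. Next came Heatr1 (2.04), Epdr1 (1.99), Gpr137b-ps (0.958), Gpr137b (0.896), Lyst (0.803), Mtr (0.551), Edaradd (0.447) and Actn2 (0.277).

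Along the chromosome, both small and large genotype differences among the 10 lay close to Lgals8. A relation to distance was not tested, since the genes were listed with this comparison known and all but Epdr1 start within 1.125 Mb. Heatr1, whose start lies 0.07 Mb away, had the smallest absolute difference at 3 weeks after Nid1, and Gpr137b-ps, at 0.185 Mb, had the largest negative one at both ages. Among the 60 tested genes that start within 8 Mb of Lgals8, these 10 included, 8 (13.3%) met the non-overlap rule with its 1.5-fold limit at both ages. Of the 50 that are not among the 10, 4 (8%) met it. They were Hecw1, Sugct, Tcrg-C2 and Gpr141, which are named here after their values were seen, and each had a mean log2 CPM under 1. Tcrg-C2, a T cell receptor gene segment, had 0.117 and 0.222 CPM in KO at 8 weeks against 0 and 0 CPM in WT at 8 weeks, so it can have passed the filter on low counts through KO alone. T and NK cell marker sums were higher in KO at both ages, as given above, with 4 of the 6 markers positive at 3 weeks. Tcrg-C1, another T cell receptor gene segment within 8 Mb and also at a low level, was higher in KO at 8 weeks but lower at 3 weeks. The part of T and NK cells in the Tcrg-C2 values was not tested. On the rest of chromosome 13, 22 of 671 genes (3.28%) met the rule, and on all other chromosomes 486 of 18915 (2.57%), low genes included. Among genes averaging 1 or more on the log2 CPM scale, a limit set after seeing the data, 0 of the 31 other neighbours met it, as did 4 of 418 on the rest of chromosome 13 and 94 of 12727 on all other chromosomes. The 31 leave out the 10, of which Ero1lb, Gpr137b and Epdr1 met the rule with mean log2 CPM of 5.20, 2.92 and 3.16. Within 1 Mb and without that limit, 3 of 12 genes met the rule, and 0 of the 4 that are not among the 10. Since the 10 were listed with this comparison known, nothing is read from counts that leave them out. At the edge of the 8 Mb on the Epdr1 side, the last gene inside was Elmo1, with log2 genotype differences of 0.30 at 8 weeks and -0.09 at 3 weeks, and the next one outside was Aoah, with -0.03 and -0.96. At the other edge the last gene inside was Akr1c20, which had 0.176 and 0.253 CPM in KO at 8 weeks against 0 and 0 CPM in WT at 8 weeks, and 0.0245 and 0.826 CPM in KO at 3 weeks against 0 and 0.0754 CPM in WT at 3 weeks. The next one outside there was Akr1c6, with log2 genotype differences of 1.127 at 8 weeks and 4.37 at 3 weeks. Its KO libraries at 3 weeks had 0.269 and 3.32 CPM, against 0.0339 and 0.138 CPM in WT at 3 weeks. At 8 weeks its groups overlapped, with 0.558 and 1.95 CPM in KO, against 0.785 and 0.368 CPM in WT.

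**Figure D4:**
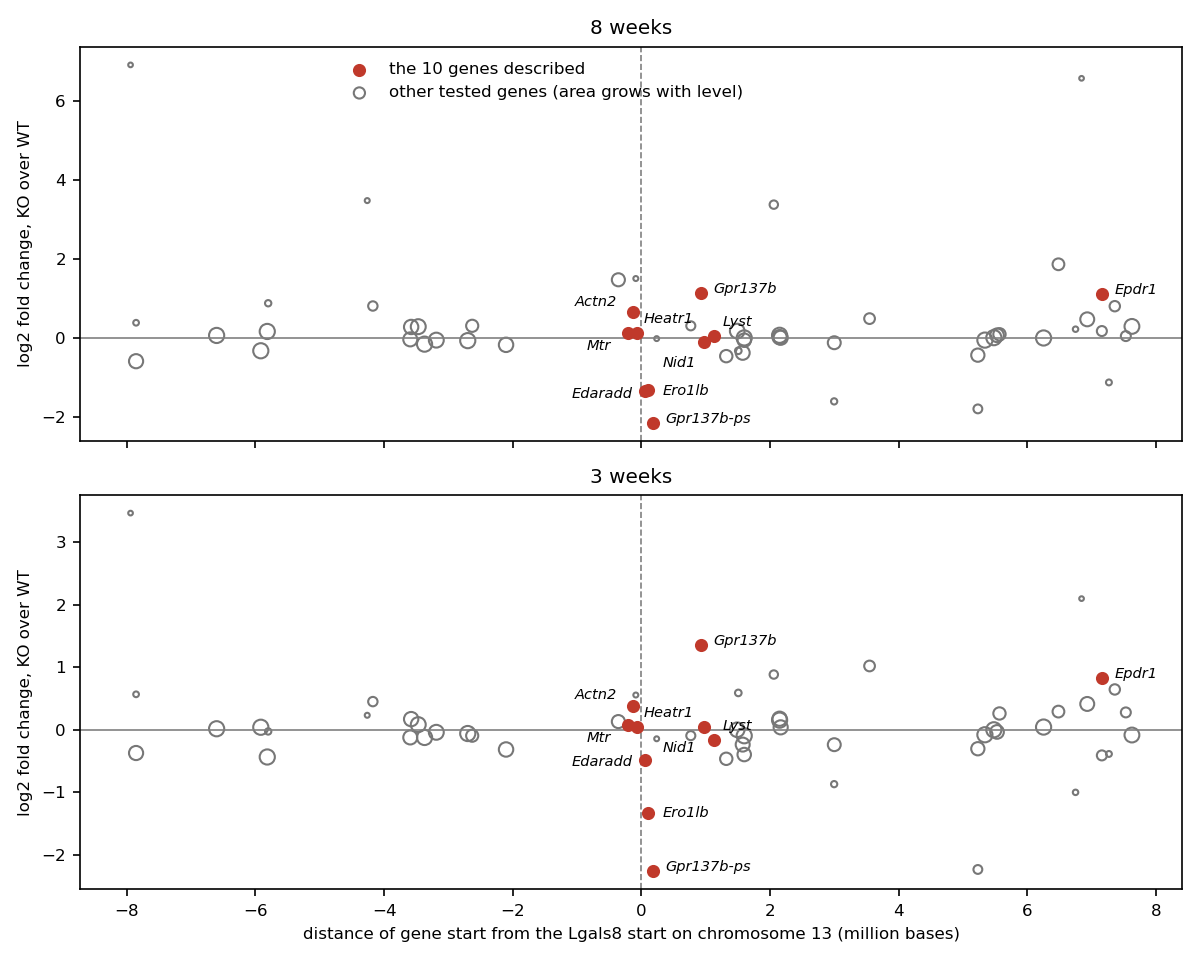
Log2 fold change of KO over WT at 8 weeks (upper panel) and 3 weeks (lower panel) against the distance of each gene's start from that of Lgals8, in Mb; filled points are the 10 genes, open points the 50 other tested genes, larger where the level is higher. Ero1lb and Gpr137b-ps lie below 0 and Gpr137b and Epdr1 above it in both panels, with Heatr1, Mtr, Nid1 and Lyst near 0.

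The gene whose log2 CPM over the 8 libraries was most like that of each neighbour was looked for among protein-coding genes averaging 1 or more on the log2 CPM scale. The 10 neighbours and Lgals8 were left out of that search. The libraries form 4 groups, so these correlations hold the group differences and are a description with no p. For Nid1 it was Postn (Pearson r 0.999), the gene for the matrix protein periostin, and for Mtr it was Vim (0.994). For Edaradd it was Lrig1 (0.983), for Lyst Pla2g6 (0.976), for Ero1lb Btnl9 (0.975) and for Gpr137b-ps Slc5a5 (0.971). For Heatr1 it was Wdr4 (0.962), for Epdr1 Prmt3 (0.961), for Gpr137b Wdfy1 (0.952) and for Actn2 Lgals1 (0.951). None of these 10 matches lies on chromosome 13, but the genes left out of the search all do, so nothing is read from this.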

How the data were processed

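The authors deposited raw counts per Ensembl gene ID for 8 stomach libraries. Reads were handled with bcl2fastq, STAR 2.7.9a and featureCounts 2.0.3 (Subread) on GRCm38, per the submitters' processing notes. The sources used here give no annotation release, strand setting or treatment of multi-mapping reads. The table held 40757 lines for 40481 IDs. The 276 repeated lines had the same counts and were dropped, and 26 symbols turned into dates were restored. GENCODE release M21, on the same build, holds 40340 of the IDs.

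Counts were tested with edgeR 4.0.16 in R 4.3.3: filterByExpr by group, TMM factors (0.757 to 1.19), 1 mean per group over all 8 libraries, robust quasi-likelihood tests with 4 residual degrees of freedom, and Benjamini-Hochberg adjustment over 19647 genes. The SE is the log2 fold change over the root of F. Alternatives used DESeq2 1.42.0 and limma 3.58.1. The procedure was tested on simulated data. The 10 genes, the gene lists and the rules were chosen with earlier results of these data known. From each list, up to 4 genes called for age are named, those with the lowest p.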

Additional observations from a re-analysis of the deposited data

How the results depend on the processing

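With library totals, 6 of the 10 genes passed for age in WT and 5 in KO, against 2 in each with TMM (that scaling moves the median of all genes, as given above). In a fit to only the 4 libraries compared, 1 passed in KO. Leaving out 1 library in turn gave 1 to 2 in each genotype, which were Nid1 and Lyst in WT without WT_8wk replicate 2 and otherwise Nid1 with or without Ero1lb, and 0 for the difference in age response. DESeq2 also called Edaradd in KO. With 1 library of a group left, it is assumed to vary like the other groups. Library totals turned the sign of 5 values: the genotype difference of Nid1 at 8 weeks (0.25), the difference in age response of Gpr137b (0.0841) and Nid1 (0.15), and the age difference of Gpr137b-ps in WT (-0.25) and Actn2 in KO (-0.23). Over the fits that leave out 1 library, the difference in age response ran from -0.0780 to 0.28 for Heatr1, -0.14 to 0.19 for Ero1lb, -0.32 to 0.77 for Gpr137b-ps, -0.27 to 0.0127 for Nid1, -0.00060 to 0.47 for Lyst, -0.0508 to 0.72 for Actn2 and -0.0033 to 0.57 for Epdr1. The age difference ran from -0.30 to 0.26 for Edaradd in WT, -0.34 to 0.75 for Gpr137b-ps in WT, -0.29 to 0.48 for Actn2 in KO and -0.45 to 0.0911 for Epdr1 in KO. None of these age values or differences in age response passed, and the cause was not tested. Genotype differences of Ero1lb, Gpr137b, Gpr137b-ps, Epdr1, Edaradd and Mtr kept their sign in all 16 alternatives at both ages.

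Over all genes, the count called for age in KO was 2115, against 3766 by DESeq2, 5238 with library totals (386 higher, 4852 lower), 241 in the 4-library fit and 268 to 3008 with 1 library left out. For age in WT it was 2814, against 9598 with library totals (185 higher, 9413 lower) and 382 to 4123 with 1 library left out. The labels do not say that replicate numbers pair the libraries. With the replicate number as a replicate block, 2 genes passed for age in WT, 2 in KO and 0 for the difference in age response. Differences between replicates 1 and 2 correlated across genes between groups at -0.461 to 0.472. At 2 libraries a group, genes near 1 CPM such as Actn2 and Gpr137b-ps are measured with an SE of 0.36 to 0.39 (log2).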
